A study of Mus musculus with 36 samples.

Results

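Apolipoproteins are the protein part of the particles that carry lipid in plasma, and liver is a main source of most of them. The genes examined were the 10 apolipoprotein genes *Apoa1*, *Apoa2*, *Apoa4*, *Apoa5*, *Apob*, *Apoc1*, *Apoc2*, *Apoc3*, *Apoe* and *Apoh*. They were taken by symbol and not by a cut on measured values, but with earlier results of these data known. All 10 were found among the 38283 genes of the count table. Liver RNA was measured in 36 male C57Bl/6J mice, aged 16 weeks and kept on chow. They formed 6 groups of 6, wild-type or *Pik3r1* WT/Y657*, either fed ad libitum, after a 16 h fast, or after such a fast and 6 h of refeeding with chow. WT/Y657* mice are heterozygous, in every tissue, for a knock-in of a truncating mutation found in human SHORT syndrome, which shortens the regulatory subunits of phosphoinositide 3-kinase that *Pik3r1* encodes. Homozygous mutants were not viable, and every comparison of genotypes is therefore of mice with 1 mutant copy against wild-type mice. Insulin signalling in liver runs through this kinase, and the comparisons ask how apolipoprotein transcripts follow feeding state with and without the mutation. All 10 genes passed the filter on low counts, so every member was tested in every comparison.

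ApoB, the product of *Apob*, is the scaffold on which liver assembles very low density lipoprotein (VLDL), with 1 copy per particle. The apoC proteins and apoA-V act on lipoprotein lipase, the enzyme that clears triglyceride from the circulating particle: apoC-II is its cofactor, apoC-III and apoC-I oppose clearance, and apoA-V promotes it. ApoE is the ligand by which remnant particles are taken up by receptors, apoA-I and apoA-II are the main proteins of high density lipoprotein (HDL), apoA-IV is carried on chylomicrons, VLDL and HDL, and apoH, also called beta-2-glycoprotein I, is a plasma protein that binds anionic phospholipid.

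Among the members 7 lie in 2 clusters. By GENCODE M21 gene models on GRCm38, chromosome 9 holds *Apoa1* (46228580 to 46230466, plus strand), *Apoc3* (46232933 to 46235636, minus strand), *Apoa4* (46240696 to 46243459, plus strand) and *Apoa5* (46268633 to 46271919, plus strand), with 2466 bases between *Apoa1* and *Apoc3*, 5059 between *Apoc3* and *Apoa4* and 25173 between *Apoa4* and *Apoa5*. Chromosome 7 holds *Apoc2* (19671579 to 19677941), *Apoc1* (19689481 to 19692660) and *Apoe* (19696109 to 19699188), all on the minus strand, with 3448 bases between *Apoc1* and *Apoe*. *Apoa2* is on chromosome 1 (171225054 to 171226379), *Apoh* on chromosome 11 (108343354 to 108414396) and *Apob* on chromosome 12 (7977648 to 8016835), all on the plus strand. The exons of *Apob* span 13934 bases, against 537 to 2522 for the other 9, so values are compared between genes only per length.

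Promoter sequence, from RefSeq on GRCm38.p6, was at hand for 8 of the 10 members. The promoters of the 4 members whose levels the results below turn on most and for which a sequence was at hand are shown 5′ to 3′ on the strand of the gene, as the bases that lie outside the gene, up to 250 of them. Capitals mark TATAAA, the E-box CACGTG or the nuclear receptor hexamer AGGTCA.
Apoa4, chr9:46240594-46240695: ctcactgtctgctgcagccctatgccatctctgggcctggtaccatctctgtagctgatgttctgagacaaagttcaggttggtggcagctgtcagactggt
Apoa5, chr9:46268358-46268607: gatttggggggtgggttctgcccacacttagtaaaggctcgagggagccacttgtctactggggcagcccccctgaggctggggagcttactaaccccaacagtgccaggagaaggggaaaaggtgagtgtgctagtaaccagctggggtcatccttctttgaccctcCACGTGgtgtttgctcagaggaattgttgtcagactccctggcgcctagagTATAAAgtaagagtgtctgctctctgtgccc
Apob, chr12:7977427-7977647: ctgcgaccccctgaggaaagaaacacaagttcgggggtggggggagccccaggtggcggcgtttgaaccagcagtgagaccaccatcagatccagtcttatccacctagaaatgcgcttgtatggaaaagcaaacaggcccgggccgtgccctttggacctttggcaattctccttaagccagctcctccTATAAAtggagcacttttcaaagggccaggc
Apoc2, chr7:19677942-19678191: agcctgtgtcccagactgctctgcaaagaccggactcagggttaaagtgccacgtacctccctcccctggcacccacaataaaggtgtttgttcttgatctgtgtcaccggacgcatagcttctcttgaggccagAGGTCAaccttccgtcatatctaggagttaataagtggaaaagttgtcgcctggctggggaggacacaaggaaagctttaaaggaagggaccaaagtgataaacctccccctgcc

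The following 5 motifs were searched on both strands in the full windows of 250 bases: TATAAA (the TATA box), the hexamer AGGTCA of nuclear receptors, the E-box CACGTG, a site of the type bound by HNF4 (CAAAGTCCA) and the cyclic AMP response element (TGACGTCA). The 8 members had 12 windows, some with several, while the shares over all windows are per window. TATAAA stood in at least 1 window of *Apoa2*, *Apoa5*, *Apob* and *Apoe*, and in 12.4% of all 32851 windows. In *Apoa2* it was 212 to 207 bases upstream of the start, and in *Apoe* its window lay inside the GENCODE gene. AGGTCA stood in windows of *Apoa2*, *Apoc2* and *Apoh* (14% of all windows), of which that of *Apoh* lay inside the GENCODE gene. CACGTG stood in the window shown for *Apoa5*, 82 to 77 bases upstream of the start (6.02%). CAAAGTCCA (0.384%) and TGACGTCA (1.55%) matched in none of the 8, which says only that these letters are not in the windows searched. The shorter stretch shown for *Apoa4* holds none of the 5 motifs.

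The authors deposited estimated counts per gene, and each value below is in CPM, counts scaled to library size with TMM (trimmed mean of M-values) factors. Total counts were 8839488 to 19542775 per mouse (median 13596665.5). Hepatocyte markers were high in every library (6 of 6 genes, summed level 51111 to 90573 CPM). Each adipocyte marker had a median under 0.1 CPM. Of the Kupffer cell and macrophage list, 5 of 6 genes were found, with a summed level of 166 to 236 CPM in fed wild-type mice, 158 to 561 in fed WT/Y657* mice and 171 to 528 in the other 4 groups. *Pik3r1* RNA did not pass the test by genotype in any state (log2 fold changes 0.04, 0.05 and 0.23, adjusted p = 0.89, 0.81 and 0.42), and a gene count cannot show a truncating point mutation, so it does not check the genotype labels. Single mice are named as the labels name them, by state (ALC for fed, ONF for fasted, RF6 for refed), genotype (WT or MT) and number. Mice of the fasted and refed groups carry numbers in a lower and a higher series, 3 mice of each genotype and state in each, while the fed mice have numbers of their own. In bulk liver, fewer cells of a type and less RNA per cell cannot be told apart.

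The 10 genes together took 4.22 ± 0.300% of all counts in fed wild-type livers (mean ± SD, n = 6) and 4.13 ± 0.325% in fed WT/Y657* livers. The share was 4.47 ± 0.167% and 4.56 ± 0.216% after fasting, and 4.27 ± 0.0964% and 4.27 ± 0.328% after refeeding. Over all 36 mice it ran from 3.73% to 4.82%. These shares are of raw totals, and their group means stayed within a narrow band while single members moved in different directions. On TMM-scaled totals the means were 4.41 ± 0.201% and 4.04 ± 0.391% in fed wild-type and WT/Y657* mice. They were 4.65% and 4.62% after fasting, and 4.23% and 4.03% after refeeding.

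Per kilobase of exon, *Apoa2* was the most abundant in fed wild-type livers at 7436 CPM per kb, followed by *Apoe* (5809), *Apoa1* (4850) and *Apoc1* (3957). A gap of 3.67-fold separated *Apoc1* from a middle group of *Apob* (1079), *Apoh* (1012) and *Apoc3* (934), and below these stood *Apoa5* (351), *Apoc2* (195) and *Apoa4* (60.1). The ranges over mice overlapped between *Apoe* and *Apoa1*, *Apoa1* and *Apoc1*, *Apob* and *Apoh*, and *Apoh* and *Apoc3*, and these neighbours are not ordered beyond their spread. The top 4 held their order by mean in all 6 groups. *Apoa4* changed place: it was last in both fed groups and in fasted wild-type mice (183 CPM per kb), passed *Apoc2* by mean in fasted WT/Y657* mice (512 against 357) and in refed wild-type mice (457 against 290), and was between *Apoc3* and *Apob* by mean in refed WT/Y657* mice (739). It exceeded *Apoc2* in 3 of 6 fasted WT/Y657* mice and 5 of 6 refed wild-type mice, and *Apob* in 1 of 6 refed WT/Y657* mice. In the mutants the order rested on single mice: without ONF_MT_827 the fasted means were 264 for *Apoa4* and 316 for *Apoc2*, and without RF6_MT_810 the refed means were 416 for *Apoa4*, 684 for *Apob* and 469 for *Apoa5*. *Apoa4* and *Apoc2* each received only part of the counts of a pair of genes, as given further on. Their places in the order rest on that split and were not examined on the sums.

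**Figure D1:**
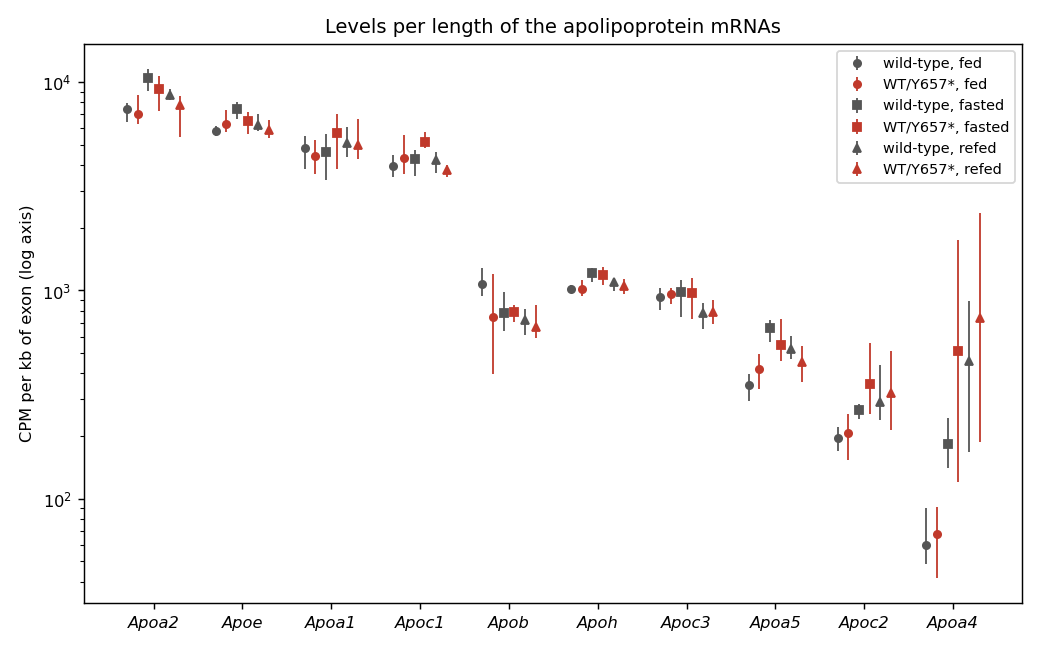
Level of each of the 10 apolipoprotein genes per kilobase of exon (CPM per kb, log axis) in the 6 groups of 6 livers. Points are group means and bars run from the lowest to the highest mouse. *Apoa2*, *Apoe*, *Apoa1* and *Apoc1* stay on top in every group, and *Apoa4* climbs from 60.1 in fed wild-type mice to 739 in refed WT/Y657* mice.

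The distance between the lowest and the highest group mean separated *Apoa4* from the rest. It was 12.3-fold for *Apoa4*, 1.88-fold for *Apoa5*, 1.83-fold for *Apoc2*, 1.61-fold for *Apob*, 1.49-fold for *Apoa2*, 1.36-fold for *Apoc1*, and 1.21- to 1.29-fold for *Apoh*, *Apoc3*, *Apoa1* and *Apoe*.

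**Figure D2:**
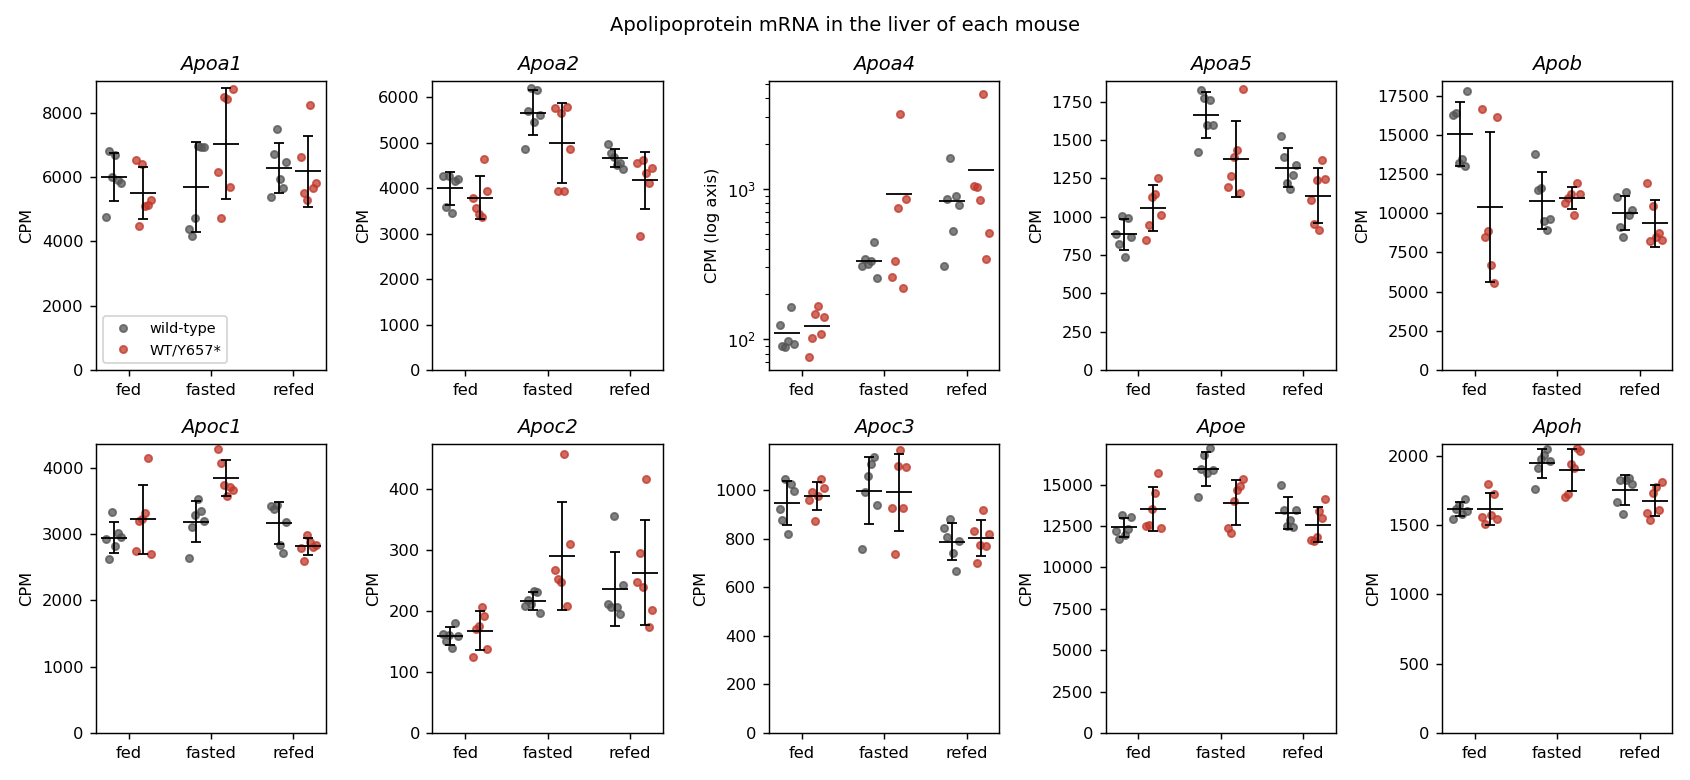
CPM of each member in every mouse, by group, 6 mice per group. Black bars are means with SD; the *Apoa4* panel has a log axis and shows means alone. Single mice stand far above their groups for *Apoa4* (3175 in a fasted and 4273 in a refed WT/Y657* mouse), and the fed WT/Y657* mice spread from 5543 to 16651 for *Apob*.

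Fasting asks how the liver's apolipoprotein transcripts change when dietary fat and carbohydrate stop arriving. In wild-type mice 7 of the 10 genes passed the test, 6 higher (*Apoa4*, *Apoa5*, *Apoa2*, *Apoc2*, *Apoe* and *Apoh*) and *Apob* lower, where 32% of all 13945 genes tested were called, 14.5% higher and 17.5% lower. In WT/Y657* mice 6 of 10 were called, all higher (*Apoa4*, *Apoc2*, *Apoa2*, *Apoa5*, *Apoh* and *Apoc1*), where 32.9% of all genes were called, 15.2% higher and 17.7% lower. The median log2 fold change of the members was 0.32 in wild-type livers and 0.31 in WT/Y657* mice, against 0.01 and -0.01 over all genes tested. Adjusted p-values here and below are from the quasi-likelihood test of edgeR, 2-sided, with Benjamini-Hochberg correction for the 13945 genes, and each group is 6 separate mice.

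*Apoa4* moved furthest. Fed wild-type mice had 88.5 to 164 CPM (median 94.7) and fasted wild-type mice 254 to 441 CPM (median 326). All 6 fasted mice stood above all 6 fed mice (means ± SD 109 ± 29.6 and 332 ± 61.4 CPM, log2 fold change 1.60 ± 0.55 (SE), adjusted p = 0.024). Fed WT/Y657* mice had 75.9 to 165 CPM (median 124). The fasted WT/Y657* mice had 218, 261, 329, 741, 850.5 and 3175 CPM. They too were all above the fed mice of their genotype, but spread over more than an order of magnitude (log2 fold change 2.92 ± 0.57 (SE), adjusted p = 0.00019). Intestinal marker counts also moved with feeding state: 3 of 4 enterocyte genes were found, with a summed level of 30.6 to 50.6 CPM in fed wild-type, 37.5 to 74.96 in fed WT/Y657*, 94.9 to 130.3 and 87.8 to 159 in fasted, and 123 to 196 and 112 to 180.5 in refed wild-type and WT/Y657* mice. Of those found, the defining marker *Alpi* was at 0 in all 36, so the sum comes from the others. Among fasted mutants ONF_MT_827 had a sum of 137, and ONF_MT_923, with 261 CPM of *Apoa4*, had the highest, 159. In refed wild-type mice RF6_WT_828 had both the highest sum, 196, and the highest *Apoa4*. The part of such RNA in the *Apoa4* values was not tested. Without the highest *Apoa4* mouse, ONF_MT_827, the log2 fold change was 1.96 (adjusted p = 0.0018).

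The 3′ end of *Apoa4* is overlapped on the other strand by *Gm10680* (46242621 to 46243529), whose counts moved with it almost exactly (Pearson r = 0.998 of log2 CPM centred on group means, over 36 mice). *Gm10680* averaged 90.0 CPM in fed wild-type livers and 774 in fasted WT/Y657* mice, and *Apoa4* received 51.5 to 56.9% of the counts of the pair, with fractional counts in 25 of 36 libraries. Libraries were stranded, but whether counting used strand is not given in the sources used here, so reads of the pair cannot be told apart. *Apoc2* and *Apoc4* do not overlap each other in GENCODE M21, where *Apoc4* spans 19678083 to 19681479 on the same strand, but *Gm44805* (19671584 to 19681423), also on that strand, overlaps both. The count table gives *Apoc2* and *Apoc4* a single locus of 19671579 to 19681423, both have fractional counts in all 36 libraries, and *Apoc2* received 23.1 to 39.7% of the counts of the pair. The calls of *Apoa4* and *Apoc2* were also made on the sum of each pair, a setting added after the data were seen, and the 2 that it changed are given with their comparisons.

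Among the genes that act on lipoprotein lipase, *Apoa5* rose furthest with fasting in wild-type mice. Fed wild-type mice had 739.7 to 1002 CPM (median 878) and fasted wild-type mice 1424 to 1827 CPM (median 1681), without overlap (log2 fold change 0.91 ± 0.11 (SE), adjusted p = 3.7e-08). Fed WT/Y657* mice had 850.1 to 1256 CPM (median 1070.3) and fasted WT/Y657* mice 1153 to 1829.8 CPM (median 1326), of which 4 stood above all fed mice (log2 fold change 0.38 ± 0.11 (SE), adjusted p = 0.0070). The difference of the responses, tested as an interaction, was -0.53 ± 0.16 on the log2 scale (adjusted p = 0.044). *Apoa5* was the 1 member of 10 called in that test, where 4.35% of all genes were. Its differences by genotype were 0.26 in fed and -0.27 in fasted mice, neither called, and both enter this value. The call lies near the threshold and was kept only without 1 of ALC_MT_858, ALC_MT_859, ALC_WT_848, ALC_WT_860, ONF_MT_827, ONF_MT_922, ONF_WT_807 and ONF_WT_920, and lost without any 1 of the other 16 of the 24 mice, with adjusted p up to 0.086 and log2 differences of -0.63 to -0.47 over all 24.

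*Apoc2*, the lipase cofactor, had 138 to 180.4 CPM (median 160.3) in fed and 196 to 233 CPM (median 215) in fasted wild-type mice, and all fasted mice were above all fed mice (log2 fold change 0.45 ± 0.17 (SE), adjusted p = 0.048). That call was kept without ALC_WT_860 and lost without any 1 of the other 11 mice, with adjusted p up to 0.097. Mutant *Apoc2* went from 124 to 207 CPM (median 172) to 207 to 457 CPM (median 259.8), again with all 6 fasted mice above all 6 fed mice (log2 fold change 0.79 ± 0.17 (SE), adjusted p = 0.00059). The highest fasted value was that of ONF_MT_827, the mouse with the highest *Apoa4*.

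*Apoc1* and *Apoc3*, whose products oppose clearance, gave smaller estimates. *Apoc1* went from 2703 to 4147 CPM (median 3211) in fed to 3580.4 to 4278 CPM (median 3724) in fasted WT/Y657* mice, with 1 fasted mouse above all fed mice (log2 fold change 0.25 ± 0.09 (SE), adjusted p = 0.028), and this call was lost without any 1 of ALC_MT_857, ALC_MT_858, ONF_MT_806 and ONF_MT_923 (adjusted p up to 0.091). In wild-type mice *Apoc1* gave 0.11 (adjusted p = 0.36). For *Apoc3* the log2 fold changes were 0.07 ± 0.10 in wild-type livers and 0.02 ± 0.10 in WT/Y657* mice, and 95% intervals of -0.12 to 0.27 and -0.17 to 0.21.

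Of the HDL genes, *Apoa2* rose in both genotypes and *Apoa1* in neither. *Apoa2* had 3458 to 4275 CPM (median 4178) in fed and 4863 to 6190.4 CPM (median 5643) in fasted wild-type mice, without overlap (log2 fold change 0.50 ± 0.11 (SE), adjusted p = 0.00035). With the mutation it went from 3368 to 4642 CPM (median 3675) to 3928 to 5775 CPM (median 5255), and 4 of 6 fasted mice were above all fed mice (log2 fold change 0.40 ± 0.11 (SE), adjusted p = 0.0040). *Apoa1* gave -0.08 ± 0.15 in wild-type mice (adjusted p = 0.74). In the mutant *Apoa1* gave 0.36 ± 0.15 (adjusted p = 0.062), and it passed the threshold without any 1 of ALC_MT_858, ALC_MT_866, ONF_MT_806 and ONF_MT_921 (lowest adjusted p = 0.018).

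Fasted wild-type mice were not alike for *Apoa1*: the mice numbered in the lower series had 4176, 4373 and 4729 CPM and those of the higher series 6939, 6941 and 6962. *Apob* ran the other way in the same mice, with 11453, 11592 and 13752 in the lower and 8943, 9486 and 9613 in the higher series. Neither gene overlapped between the series within this group. The part of the number series in these values was not tested.

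*Apoe*, the remnant ligand, rose in fasted wild-type mice from 11743 to 13199.7 CPM (median 12277) to 14273 to 17197 CPM (median 15922), without overlap (log2 fold change 0.36 ± 0.08 (SE), adjusted p = 0.00076). The levels of WT/Y657* mice were 12396 to 15692 CPM (median 13059.7) and 12112 to 15370.1 CPM (median 14341), which overlap (log2 fold change 0.04 ± 0.08 (SE), adjusted p = 0.76). The difference of these responses was -0.32 ± 0.12 (adjusted p = 0.11), so *Apoe* is not shown to respond differently in the mutant. *Apoh* rose in both genotypes, with log2 fold changes of 0.27 (adjusted p = 0.0025) in wild-type livers and 0.23 (adjusted p = 0.0093) in WT/Y657* mice, with all 6 and 4 of 6 fasted mice above all fed mice.

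*Apob*, the VLDL scaffold, fell with fasting in wild-type mice. The fed mice had 13042 to 17811 CPM (median 14853) and the fasted mice 8943 to 13752, with 5 of 6 fasted mice below all fed mice (log2 fold change -0.48 ± 0.17 (SE), adjusted p = 0.034). The call was lost without any 1 of ALC_WT_847, ALC_WT_850, ALC_WT_856, ONF_WT_918, ONF_WT_919 and ONF_WT_920 (adjusted p up to 0.080). The mutant change was 0.08 ± 0.17 (adjusted p = 0.78) from a fed group that is itself split, as described further on. The difference of the responses was 0.55 ± 0.25 (adjusted p = 0.20). Levels of other long transcripts in these groups are given further on, beside the fed *Apob* values.

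**Figure D3:**
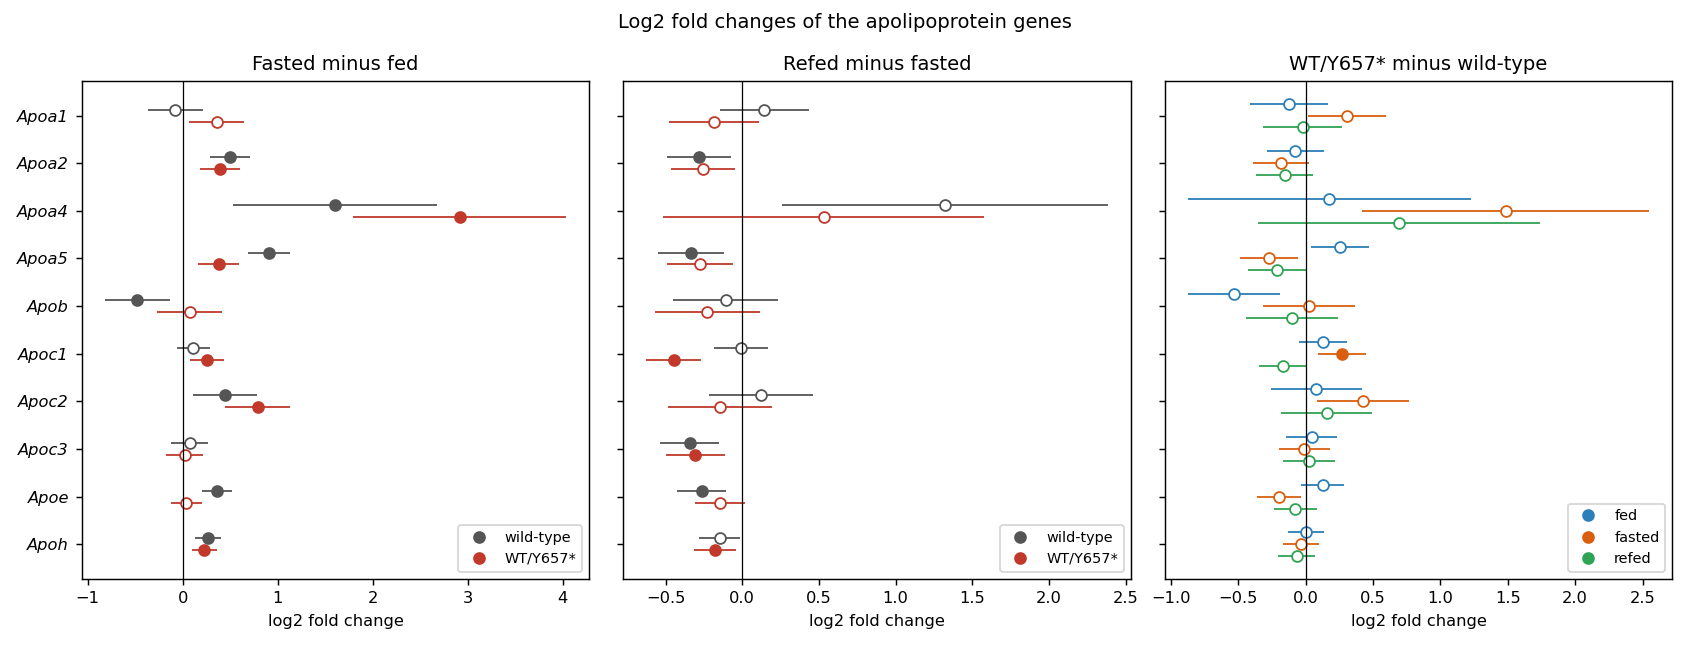
Log2 fold change of each member in the comparisons of feeding state and of genotype, with bars for the 95% interval. Filled points have an adjusted p below 0.05 by edgeR's quasi-likelihood test. *Apoa4* shows the largest estimates and the widest bars, 2.92 ± 0.57 (SE) for fasting in WT/Y657* mice, while *Apoh* lies between -0.18 and 0.27 throughout.

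Refeeding after the fast asks which of these changes are undone within 6 h. In wild-type mice 4 of 10 members were called lower than in the fasted state (*Apoa5*, *Apoa2*, *Apoe* and *Apoc3*) and none was called higher, where 30.2% of all genes were called, 13.7% lower and 16.5% higher. In WT/Y657* mice 3 were called lower (*Apoc1*, *Apoc3* and *Apoh*) and none higher, where 31.3% were called, 14.2% lower and 17.1% higher. The members' median log2 fold changes were -0.13 and -0.21, against 0.00 and -0.01 over all genes.

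*Apoa5* fell in wild-type mice from 1424 to 1827 CPM (median 1681) to 1179 to 1528 CPM (median 1304), with 5 of 6 refed mice below all fasted mice (log2 fold change -0.33 ± 0.11 (SE), adjusted p = 0.019). It remained above the fed level in all 6 refed mice (log2 fold change 0.58, adjusted p = 0.00014). Refed WT/Y657* mice had 916 to 1369 CPM (median 1173), and the change from fasting was -0.28 ± 0.11 (adjusted p = 0.053), past the threshold without any 1 of ONF_MT_806, ONF_MT_921, ONF_MT_923, RF6_MT_814 and RF6_MT_899 (lowest adjusted p = 0.024). Against fed WT/Y657* mice it gave 0.10 (adjusted p = 0.52).

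*Apoc1* fell in WT/Y657* mice from 3580.4 to 4278 CPM (median 3724) to 2599 to 2979.7 CPM (median 2822). No refed mouse reached the lowest fasted mouse (log2 fold change -0.45 ± 0.09 (SE), adjusted p = 0.00019). In wild-type mice the levels were 2632 to 3530.3 CPM (median 3244) and 2718 to 3434 CPM (median 3286) (log2 fold change -0.01 ± 0.09 (SE), adjusted p = 0.95). The difference of the refeeding responses was -0.44 ± 0.13 (adjusted p = 0.060), which misses the threshold and passed it without RF6_WT_896 (log2 fold change -0.47, adjusted p = 0.048) or RF6_WT_900 (log2 fold change -0.48, adjusted p = 0.048). No member was called in that test of the difference, where 2.06% of all genes were, and 1 of 10 had an unadjusted p below 0.05. DESeq2 called 1 member.

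*Apoc3* was the only member called lower with refeeding in both genotypes, though *Apoa2*, *Apoa5*, *Apob*, *Apoc1*, *Apoe* and *Apoh* also had negative estimates in both. It went from 757 to 1135 CPM (median 1024) to 665 to 881 CPM (median 799) in wild-type mice (log2 fold change -0.34 ± 0.10 (SE), adjusted p = 0.0072). In WT/Y657* mice it went from 737 to 1166 CPM (median 1010.1) to 699 to 916 CPM (median 797) (log2 fold change -0.31 ± 0.10 (SE), adjusted p = 0.015). The groups overlapped in both. Without ONF_MT_827 the second call was lost (log2 fold change -0.25, adjusted p = 0.053). *Apoe* fell in wild-type mice to 12433 to 14989 CPM (median 13155), with 5 of 6 refed mice below all fasted mice (log2 fold change -0.27 ± 0.08 (SE), adjusted p = 0.013), and was at 11586 to 14109 CPM (median 12406) in refed WT/Y657* mice (log2 fold change -0.14, adjusted p = 0.19).

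*Apoa2* was at 4421 to 4961 CPM (median 4622) in refed wild-type mice, 5 of 6 below all fasted mice (log2 fold change -0.28 ± 0.11 (SE), adjusted p = 0.042), a call kept without ONF_WT_807 or RF6_WT_815 and lost without any 1 of the other 10 (adjusted p up to 0.091). Of the refed WT/Y657* mice, 5 had 4123 to 4629 CPM and RF6_MT_898 had 2939. The Kupffer cell and macrophage sum of RF6_MT_898 was 528 CPM, the highest of the 12 refed mice, and its part in the *Apoa2* value was not tested. The change in WT/Y657* mice was -0.26 ± 0.11 (adjusted p = 0.065), and it passed the threshold without ONF_MT_806 (log2 fold change -0.32, adjusted p = 0.024) or ONF_MT_827 (log2 fold change -0.32, adjusted p = 0.024).

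With refeeding *Apoh* gave a log2 fold change of -0.15 (adjusted p = 0.10) in wild-type mice, which misses the threshold, and fell in WT/Y657* mice, with -0.18 (adjusted p = 0.045). The second call was lost without any 1 of 8 of the 12 mice (ONF_MT_826, ONF_MT_827, ONF_MT_921, ONF_MT_922, RF6_MT_814, RF6_MT_897, RF6_MT_898 and RF6_MT_899), with adjusted p up to 0.11. *Apoa1* did not pass the test, at 0.14 (adjusted p = 0.50) in wild-type livers and -0.19 (adjusted p = 0.36) in WT/Y657* mice. In wild-type mice its change was 0.55 within the lower number series and -0.21 within the higher.

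*Apoa4* did not return to its fed level. The refed wild-type mice had 304, 523, 785, 861, 898.7 and 1608 CPM, and 5 of them were above every fasted wild-type mouse. The change from fasting was 1.32 ± 0.54 (adjusted p = 0.063) and passed the threshold without RF6_WT_815 (log2 fold change 1.49, adjusted p = 0.042), on the sum of *Apoa4* and *Gm10680* (log2 fold change 1.41, adjusted p = 0.048), and with library totals, DESeq2, the likelihood ratio test or only the groups compared (lowest adjusted p = 0.012). It was 1.22 within the lower and 1.10 within the higher number series.

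The refed WT/Y657* mice had 342, 507, 844, 1031, 1052 and 4273 CPM of *Apoa4*, within the range of the fasted mice except for RF6_MT_810 (log2 fold change 0.53 ± 0.53 (SE), adjusted p = 0.48). Single mice set this estimate: it was 1.48 (adjusted p = 0.018) without ONF_MT_827 and -0.30 (adjusted p = 0.69) without RF6_MT_810. Within the number series it was -0.02 (lower) and 1.41 (higher). Against the fed state, all 6 refed mice were higher in both genotypes, at 2.93 ± 0.57 in wild-type (adjusted p = 0.00029) and 3.44 ± 0.59 in WT/Y657* mice (adjusted p = 5.3e-05).

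Refed mice were also compared with fed mice. In wild-type mice *Apoa4*, *Apoa5* and *Apoc2* were higher and *Apob* and *Apoc3* lower, 5 of 10, where 27.5% of all genes were called, 13.2% higher and 14.3% lower. In WT/Y657* mice *Apoa4* and *Apoc2* were higher and *Apoc3* lower, 3 of 10, where 26.1% were called, 13% higher and 13.1% lower. The members' median log2 fold changes were 0.11 and 0.08, against 0.02 and 0.00 over all genes.

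*Apob* stood at 8517 to 11359.7 CPM (median 10036) in refed wild-type mice, all 6 below all fed mice (log2 fold change -0.58 ± 0.18 (SE), adjusted p = 0.011). Other long transcripts also stood lower in refed than in fed wild-type mice, as given further on. *Apoc2* had 195 to 355 CPM (median 208) in refed wild-type mice, all 6 above all fed mice (log2 fold change 0.57 ± 0.17 (SE), adjusted p = 0.013), a call lost without RF6_WT_828 (log2 fold change 0.42, adjusted p = 0.063), which had 355 CPM while the other 5 had 195 to 242. Among WT/Y657* mice *Apoc2* gave 0.65 (adjusted p = 0.0057). *Apoc3* was lower than in fed mice, with a log2 fold change of -0.27 (adjusted p = 0.039) in wild-type mice, lost without any 1 of 7 of the 12 (ALC_WT_848, ALC_WT_850, ALC_WT_860, RF6_WT_816, RF6_WT_896, RF6_WT_900 and RF6_WT_901, adjusted p up to 0.11), and of -0.28 (adjusted p = 0.030) in WT/Y657* mice, lost without any 1 of 5 (ALC_MT_857, ALC_MT_869, RF6_MT_814, RF6_MT_898 and RF6_MT_899, adjusted p up to 0.071).

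The question at the centre of the study is what the mutation does in each state. In fed mice no member was called by genotype, where 2.37% of all genes were (330 genes, but 30 with only the fed groups in the fit), and 2 had an unadjusted p below 0.05. In fasted mice 1 was called, *Apoc1*, where 13.1% of all genes were, and 6 had an unadjusted p below 0.05. In refed mice none was called, where 0.0287% of all genes were, and none had an unadjusted p below 0.05. The members' median log2 fold changes were 0.06, 0.01 and -0.07, against 0.01, 0.00 and 0.01 over all genes. DESeq2 called 1, 3 and 0 members.

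*Apoc1* was higher in fasted WT/Y657* mice. Fasted wild-type mice had 2632 to 3530.3 CPM (median 3244) and fasted WT/Y657* mice 3580.4 to 4278 CPM (median 3724), and all 6 mutants were above all 6 wild-type mice (means 3185 ± 306 and 3842 ± 274 CPM, log2 fold change 0.27 ± 0.09 (SE), adjusted p = 0.041). The difference was 0.34 within the lower and 0.21 within the higher number series. Close to the threshold, the call was lost without any 1 of 8 of the 12 mice (ONF_MT_806, ONF_MT_826, ONF_MT_923, ONF_WT_807, ONF_WT_824, ONF_WT_825, ONF_WT_919 and ONF_WT_920), with adjusted p up to 0.11 and a log2 fold change of 0.22 to 0.30 over all 12. In the fed and refed states *Apoc1* gave 0.13 (adjusted p = 0.47) and -0.17 (adjusted p = 0.56).

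*Apoa4* was higher on average in fasted WT/Y657* mice but its difference missed the threshold (log2 fold change 1.49 ± 0.54 (SE), adjusted p = 0.068). Of the 6 mutants, 3 stood above every wild-type mouse, 1 below every one, and 2 among them. Without ONF_MT_827 the log2 fold change was 0.53 (adjusted p = 0.52), and without ONF_MT_921 (log2 fold change 1.69, adjusted p = 0.034) or ONF_MT_923 (log2 fold change 1.68, adjusted p = 0.044) it passed. The difference was 1.52 within the lower number series and 0.12 within the higher. In the fed and refed states it was 0.17 (adjusted p = 0.90) and 0.69 (adjusted p = 0.71), and the 95% intervals ran from -0.88 to 1.23 and from -0.35 to 1.74.

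*Apoc2* had a higher mean and *Apoa5* and *Apoe* a lower mean in fasted mutants, and none of the 3 passed the test. For *Apoc2*, 5 of 6 mutants were above all wild-type mice (log2 fold change 0.43 ± 0.17 (SE), adjusted p = 0.10). On the sum of *Apoc2* and *Apoc4* the difference passed the threshold (log2 fold change 0.37, adjusted p = 0.0094). For *Apoa5*, 4 of 6 were below all wild-type mice (log2 fold change -0.27 ± 0.11 (SE), adjusted p = 0.096), with -0.29 and -0.28 within the lower and higher number series, and the threshold was passed without ONF_MT_922 (log2 fold change -0.37, adjusted p = 0.017). For *Apoe*, 3 of 6 were below (log2 fold change -0.20, adjusted p = 0.11). *Apoa1* gave 0.31 (adjusted p = 0.17), made up of 0.66 within the lower and -0.04 within the higher number series, and *Apoa2* -0.18 (adjusted p = 0.27). *Apob*, *Apoc3* and *Apoh* were at 0.02, -0.01 and -0.04, with 95% intervals of -0.32 to 0.36, -0.20 to 0.18 and -0.17 to 0.10.

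In the fed state *Apob* fell into very different levels among the mutants. Fed wild-type mice had 13042 to 17811 CPM (median 14853). The fed WT/Y657* mice had 16651 and 16142 CPM in ALC_MT_858 and ALC_MT_857, and 8885, 8499, 6694 and 5543 in ALC_MT_866, ALC_MT_859, ALC_MT_868 and ALC_MT_869. The first pair lay inside the wild-type range and the other 4 below all wild-type mice (means 15031 ± 2034 and 10402 ± 4802 CPM, log2 fold change -0.53 ± 0.18 (SE), adjusted p = 0.086). The difference passed the threshold without ALC_MT_857 (log2 fold change -0.70, adjusted p = 0.017) or ALC_MT_858 (log2 fold change -0.72, adjusted p = 0.010), and with DESeq2 or limma-voom on all mice.

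Other values moved with this split. The Kupffer cell and macrophage sum was 158 and 165 CPM in ALC_MT_857 and ALC_MT_858 and 348 to 561 in the other 4, against 166 to 236 in fed wild-type mice, so the 4 mice with low *Apob* were those with high macrophage transcripts. The stellate cell sum did not follow the split (426 and 420 CPM in ALC_MT_857 and ALC_MT_858, 373 to 519 in the other 4), but it was 262 to 374 in fed wild-type mice, below 5 of the 6 fed mutants. *Apob* was also the member most like other long transcripts, taken as the median of 2332 genes whose exons span at least 8000 bases. On log2 CPM centred on group means, over 36 mice, *Apob* had r = 0.89 with that median. With each gene centred instead on its mean over all 36 mice, the median was 0.13 and 0.16 in ALC_MT_857 and ALC_MT_858. It was 0.0027 in ALC_MT_859, 0.074 in ALC_MT_866, -0.0036 in ALC_MT_868 and -0.060 in ALC_MT_869, and 0.06 to 0.12 in fed wild-type mice. Among the fed mice numbered from ALC_WT_856 to ALC_WT_860, which are 3 mutants and 2 wild-type mice, the *Apob* difference was -0.14. In refed wild-type mice the median of the long transcripts was -0.090 to -0.034, below all fed wild-type mice. In fasted wild-type mice it was 0.033 to 0.071 in the lower number series and -0.033 to 0.017 in the higher. The part of macrophage or stellate cell content, transcript length or mouse number in the *Apob* differences by genotype or feeding state was not tested.

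**Figure D4:**
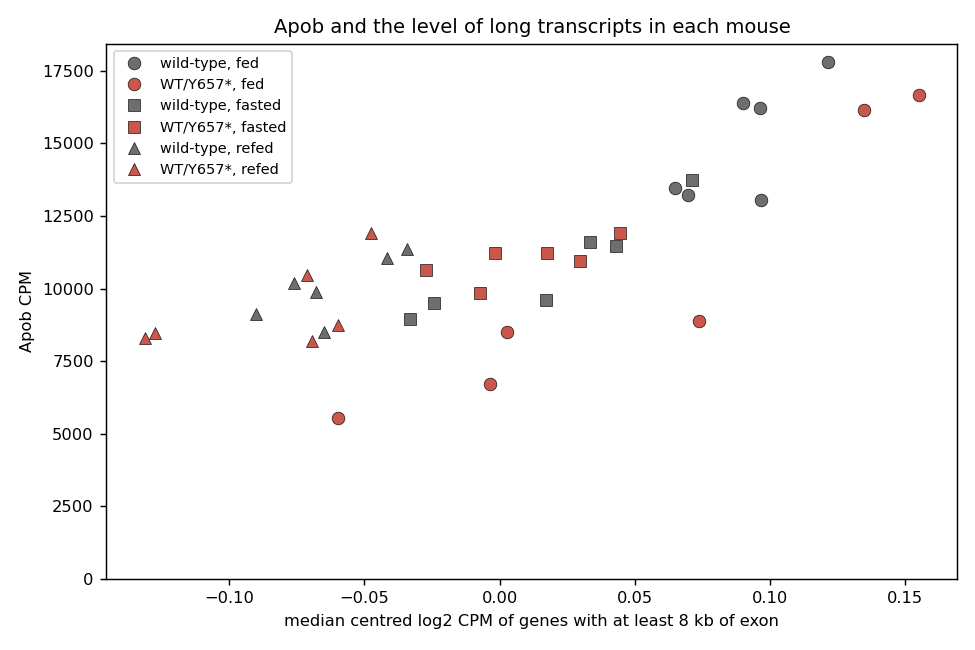
*Apob* CPM of each of the 36 mice against the median log2 CPM of 2332 genes with at least 8000 bases of exon. Each of these genes was centred on its mean over all 36 mice. Points are mice, marked by group. *Apob* rises with the long transcripts, and the fed WT/Y657* mice spread from 5543 to 16651 CPM.

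The remaining fed differences were small. *Apoa5* gave 0.26 (adjusted p = 0.21), with 4 of 6 mutants above all wild-type mice, but -0.01 among the fed mice numbered from ALC_WT_856 to ALC_WT_860. *Apoe* gave 0.12 (adjusted p = 0.45), *Apoa1* -0.13 (adjusted p = 0.71) and *Apoa2* -0.08 (adjusted p = 0.76). In refed mice *Apoa5* gave -0.22 (adjusted p = 0.54), *Apoa2* -0.16 (adjusted p = 0.67) and *Apob* -0.10 (adjusted p = 0.88).

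How the members vary together within groups was described with log2 CPM centred on the group means, over 36 mice, which share library and depth effects. The 9 pairs on a shared chromosome had a median r of 0.41 (-0.00 to 0.54), and the other 36 pairs 0.16 (-0.67 to 0.83). The highest was *Apoa4* with *Apoc2*, on different chromosomes (r = 0.83, Spearman's rho 0.64, and r = 0.71 without the 2 mice farthest from their group mean of *Apoa4*). In 5 of 6 groups the mouse with most *Apoa4* was also the one with most *Apoc2*, and in the sixth, fasted wild-type, it was second. In both refed groups that mouse also had the most *Apoa1* (7503 CPM in RF6_WT_828 and 8234 in RF6_MT_810).

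*Apoe* went with *Apoh* (r = 0.63), *Apoa5* (0.61) and *Apoc3* (0.60), and *Apoa1* with its neighbours *Apoc3* (0.54) and *Apoa4* (0.51). *Apob* and *Apoc1* ran against each other (-0.67). *Apoc1*, with exons of 744 bases, had r = -0.67 with the long transcripts, *Apoe* -0.44 and *Apoc2* -0.42, and the other members except *Apob* lay between -0.32 and -0.15.

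**Figure D5:**
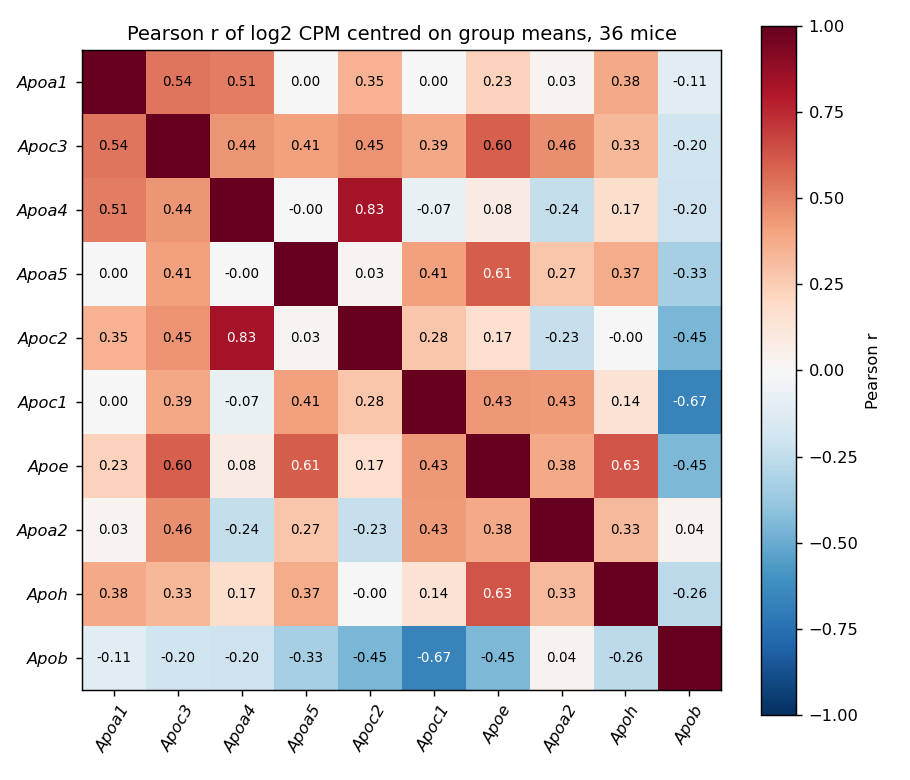
Pearson r between the members' log2 CPM centred on group means, over 36 mice, as a heat map of the 45 pairs. *Apoa4* with *Apoc2* is the strongest positive pair (0.83) and *Apob* with *Apoc1* the strongest negative one (-0.67).

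Among 12600 genes with a mean of at least 1 CPM, those most like each member across the 36 mice by Pearson r were, for *Apob*, *Huwe1* (r = 0.95, rho 0.90) and *Birc6* (0.94), ubiquitin ligases with exons of 23507 and 25772 bases. *Apoa4* was most like *Gm10680* and *Apoc2*, as given above, and *Apoc2* like *Aldh1b1* (0.84), a mitochondrial aldehyde dehydrogenase. For *Apoa2* they were *Pon1*, an HDL-borne paraoxonase (0.86), and *Car3*, a carbonic anhydrase (0.85), for *Apoc3* *Sdhb*, a subunit of succinate dehydrogenase, and *Rarres2*, which encodes chemerin (both 0.82), and for *Apoh* the carboxylesterase *Ces1c* (0.82) and *Sdc2*, a syndecan (0.76). *Apoa1* was most like *Serpinf2* and *Serpina1b*, plasma protease inhibitors (both 0.77), *Apoe* like *Hibadh* and *Ivd*, enzymes of branched-chain amino acid breakdown (both 0.77), *Apoc1* like *Gchfr* (0.76) and *Uqcr10* (0.75), and *Apoa5* like the transporter *Slc47a1* (0.75) and *Atad3a* (0.74). By Spearman's rho the most alike gene was the same for 4 of the 10 members (*Apoa4*, *Apob*, *Apoe* and *Apoh*). These likenesses are descriptions over mice that also share library effects.

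Other genes of the pathway were taken from 6 lists. In refed mice, where only 0.0287% of all genes were called by genotype, no gene of the 6 lists was. In fasted mice, where 13.1% of all genes were called and their median log2 fold change was 0.00, the medians of the lists were -0.06 for other apolipoproteins, 0.06 for assembly and secretion, -0.12 for receptors and uptake, -0.03 for lipases, transfer proteins and their inhibitors, -0.11 for HDL and sterol transporters and -0.16 for regulators of transcription. With fasting, in the same order, 3 of 10, 7 of 15, 10 of 18, 7 of 15, 6 of 11 and 12 of 38 genes tested were called in wild-type mice, where 32% of all genes were, and 6, 10, 10, 5, 5 and 18 in WT/Y657* mice, where 32.9% were. Of the other apolipoprotein genes, 10 of 16 passed the filter on counts, and 6 of these were called by genotype in fasted mice, 3 higher and 3 lower. The 3 lower ones were *Apol7a* (log2 fold change ± SE -1.03 ± 0.18, adjusted p = 0.00029), *Apol9b* (-0.97) and *Apol9a* (-0.80), which belong to the apolipoprotein L family of intracellular proteins and whose close copies may share reads. The 3 higher ones were *Apoc4* (0.35 ± 0.08, adjusted p = 0.0041), which shares a locus with *Apoc2* in the count table, *Apoo* (0.35), a mitochondrial membrane protein, and *Apold1* (0.76), an endothelial gene.

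Among receptors and uptake genes 3 of 18 tested were called in fasted mice, 1 higher and 2 lower. *Mylip*, a ubiquitin ligase, was higher (0.48 ± 0.11, adjusted p = 0.0041). *Sdc1*, a proteoglycan receptor of remnants, was higher in fed mutants (0.62 ± 0.12, adjusted p = 0.0048). Of assembly and secretion genes 3 of 15 were called in fasted mice, *Vmp1* (0.55) and *Pla2g12b* (0.25) higher and *Cideb* (-0.34) lower, all 3 of which act on VLDL lipidation or export.

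Of lipases, transfer proteins and their inhibitors 3 of 15 were called in fasted mice: *Lipc*, hepatic lipase (-0.75 ± 0.16, adjusted p = 0.0021), and *Pcsk6*, a protease (-0.56), were lower and *Pla2g7*, a lipoprotein-bound phospholipase made by macrophages, higher (1.26). In fed mice *Gpihbp1*, which anchors lipoprotein lipase to capillaries, was higher (0.50 ± 0.13, adjusted p = 0.034). Of HDL and sterol transporters 1 of 11 was called in fasted mice, *Npc1* (-0.32), and 1 in fed mice, *Abca1*, which loads apoA-I with lipid (-0.44), both lower.

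Of 38 regulators of apolipoprotein transcription tested, 9 were called in fasted mutants, all lower. Among them were the sterol regulator *Srebf1* (-1.07 ± 0.19, adjusted p = 0.00037), *Foxa2* (-0.93), *Ppara* (-0.55), *Cebpa* (-0.51), *Nr2f2* (-0.44), *Foxo3* (-0.34) and *Nr5a2* (-0.29). In fed mutants *Rxra* (-0.31) and *Foxo3* (-0.31) were called of the 38, both lower, where 2.37% of all genes were called. With fasting, 5 of the 38 regulators rose and 7 fell in wild-type livers, where 14.5% of all genes rose and 17.5% fell, and 5 rose and 13 fell in WT/Y657* mice, where 15.2% rose and 17.7% fell.

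The difference of the fasting responses was called for 7 genes of the lists, where 4.35% of all genes were called. In the order of the lists given above, these were 2 of 10, 1 of 15, 1 of 18, 0 of 15, 0 of 11 and 3 of 38 genes tested. Among them were *Apol7a*, *Apol9a*, *Vmp1* (0.61), *Hnf4a* (0.41), *Srebf1* (-1.24) and *Foxa2* (-1.11). The difference of the refeeding responses was called for 1 of 15 assembly and secretion genes, *Vmp1* (-0.59). It was also called for 2 of 38 regulators, *Srebf1* (1.04) and *Foxa2* (0.97), where 2.06% of all genes were called. Both sets of differences use the same fasted mice.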

How the data were processed

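Liver RNA of 36 mice was sequenced from stranded total RNA libraries as single reads. Per the labels, the authors named Cuffdiff and SAMtools for alignment, featureCounts for counting and edgeR for analysis, without versions, and they deposited estimated counts per gene and mouse, not normalized (3.64% of non-zero values were not whole, and all were rounded). The label text mentions human genes, but the members carry mouse identifiers. The labels name build mm9, but the loci of the count table follow GRCm38: of the genes found by identifier in GENCODE M21, 80.89% had a locus that covers the M21 gene within 10 bases, and in 50.04% both ends matched. A second deposited table of modelled condition means was not used here.

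Members were taken by symbol. They and the gene lists were chosen with earlier results of these data known. Genotype and state came from the sample labels. Counts were fitted with edgeR 4.0.16 (R 4.3.3): filterByExpr (13945 genes), TMM scaling, glmQLFit (robust) with 1 coefficient for each of 6 groups over all 36 libraries, and glmQLFTest, 2-sided, with Benjamini-Hochberg adjustment over all genes and a threshold of 0.05. The common biological coefficient of variation was 0.1809. Likenesses were computed from log2 CPM (prior count 2). The fit was tested on simulated counts. Alternatives were DESeq2 1.42.0, limma-voom (limma 3.58.1), the likelihood ratio test, other scaling and filters, Bonferroni adjustment, fits to fewer groups, the mouse number series as a covariate, each mouse left out in turn and overlapping genes summed. All 10 members were named, and of each list the genes called in a genotype comparison. Some results under this rule are not reported here. Intervals of log2 fold changes are 95% normal intervals from the standard error. Each group had 6 mice, at total counts of 8839488 to 19542775. The standard errors and p-values rest on a spread estimated over all 36 libraries, not on that of the compared groups alone. *Apob* by genotype thus had an SE of 0.175 in fed and in fasted mice. Its SD was 4802 CPM in fed and 687 CPM in fasted WT/Y657* mice.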

Additional observations from a re-analysis of the deposited data

Results flagged for a closer look

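In 4 of 60 groups of 6 mice tested across the members, 1 mouse stood apart from the other 5 by Dixon's test, and chance alone gives about 1 in 20 groups, or 3 of 60. They were ONF_MT_827, with 3175 CPM of *Apoa4* where the other 5 had 218 to 850.5, RF6_MT_810, with 4273 CPM of *Apoa4* where the other 5 had 342 to 1052, RF6_WT_828, with 355 CPM of *Apoc2* where the other 5 had 195 to 242, and RF6_MT_898, with 2939 CPM of *Apoa2* where the other 5 had 4123 to 4629. ONF_MT_827 and RF6_MT_810 also had the highest *Apoc2* of their groups (457 and 416 CPM), and RF6_WT_828 the highest *Apoa4* of its group (1608 CPM).

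The fasting response of *Apoa5* differed between genotypes by a test of the difference itself (log2 difference -0.53 ± 0.16 (SE), adjusted p = 0.044 by edgeR's quasi-likelihood test). The call was lost without any 1 of 16 of the 24 mice, with only the groups compared in the fit and under Bonferroni adjustment. All 6 fasted wild-type mice and 4 of 6 fasted WT/Y657* mice stood above all fed mice of their genotype. By genotype *Apoa5* gave 0.26 in fed and -0.27 in fasted mice. The fed part was -0.01 among the fed mice numbered from ALC_WT_856 to ALC_WT_860.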

How the results depend on the processing

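The numbers of members called were least stable under Bonferroni adjustment: 1 of 10 in place of 7 for fasting in wild-type mice, 1 in place of 3 for refed against fed WT/Y657* mice, and 0 for fasting in WT/Y657* mice (6), refeeding in wild-type (4) or mutant mice (3), refed against fed wild-type mice (5), genotype in fasted mice (1) and the difference of the fasting responses (1). DESeq2 called 1 by genotype in fed and 3 in fasted mice, 5 for refeeding in WT/Y657* mice, 2 for the difference of the fasting responses and 1 for that of the refeeding responses. Limma-voom called 1 by genotype in fed mice. With library totals in place of TMM, 2 were called for refeeding in wild-type mice and 1 with the mutation, and 2 for the difference of the fasting responses. With at least 10 counts in every library, 5 were called for refeeding in WT/Y657* mice and 1 for the difference of the refeeding responses. With only the groups compared in the fit, 0 were called by genotype in fasted mice, 1 for refeeding in WT/Y657* mice and 0 for the difference of the fasting responses. Without the filter on low counts, 0 were called by genotype in fasted mice, and with overlapping genes summed, 2. Beyond the stricter threshold of Bonferroni adjustment, the cause was not tested.

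Leaving out 1 mouse at a time gave 0 to 1 members called by genotype in fed, 0 to 2 in fasted and 0 to 0 in refed mice, 5 to 7 for fasting in either genotype, 3 to 5 and 2 to 5 for refeeding of wild-type or mutant mice, 4 to 5 and 2 to 3 for refed against fed mice, and 0 to 1 for either difference of responses. No called member changed sign in any setting. The signs that turned with other settings were of uncalled values near 0. With library totals they were *Apoa2* by genotype in fed (0.018), *Apoc3* in fasted (0.025) and *Apoa1* in refed mice (0.045), *Apoc3* (-0.037) and *Apoe* (-0.018) for fasting in WT/Y657* mice and *Apoc1* for refeeding in wild-type mice (0.061). With at least 10 counts or only the groups compared *Apoc3* turned in fasted mice (0.0076 and 0.012), and with DESeq2 size factors, DESeq2 or only the groups compared *Apoh* in fed mice (-0.0025, -0.0025 and -0.0022). With single mice left out, the signs of 19 uncalled values also turned: by genotype in fed mice *Apoh* from -0.030 to 0.022, by genotype in fasted mice *Apob* from -0.029 to 0.10 and *Apoc3* from -0.079 to 0.062, by genotype in refed mice *Apoa1* from -0.12 to 0.034, *Apoa4* from -0.14 to 0.99, *Apoc2* from -0.025 to 0.31 and *Apoc3* from -0.018 to 0.063, for fasting in WT/Y657* mice *Apob* from -0.054 to 0.26 and *Apoc3* from -0.030 to 0.094. The others ran for refeeding in wild-type mice *Apoc1* from -0.059 to 0.031 and *Apoc2* from -0.029 to 0.17, for refeeding in WT/Y657* mice *Apoa4* from -0.30 to 1.48 and *Apoc2* from -0.33 to 0.030, for refed against fed WT/Y657* mice *Apob* from -0.28 to 0.031, for the difference of the fasting responses *Apoc3* from -0.12 to 0.020, and for the difference of the refeeding responses *Apoa2* from -0.033 to 0.11, *Apoa4* from -1.62 to 0.16, *Apoa5* from -0.0015 to 0.16 and *Apoc3* from -0.036 to 0.11.

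Library totals moved the median of all genes by at most 0.0998 on the log2 scale, but raised the share of called genes that were higher from 51.2 to 88.9% for genotype in fed, 49.2 to 64.4% in fasted and 75 to 100% in refed mice, from 54.5 to 68.3% and 54.7 to 73.1% for refeeding and from 48.1 to 65.7% and 49.7 to 61.5% for refed against fed mice (wild-type, then mutant), and from 28.9 to 39.8% for the difference of the refeeding responses. It lowered that share from 46.2 to 35.99% for fasting in WT/Y657* mice and from 59.5 to 34.2% for the difference of the fasting responses. Of all genes, 330 were called by genotype in fed mice, and 30 with only the groups compared, 207 without the filter on low counts, 516 by the likelihood ratio test, 644 by DESeq2 and 756 by library totals. Leaving out 1 fed mouse gave as few as 68 (without ALC_MT_868), and without ALC_MT_858 more than library totals did. In refed mice 4 were called, and 18 by the likelihood ratio test, 25 by DESeq2 and 1 to 6 without 1 mouse. In fasted mice 1821 were called, and 1168 to 2003 without 1 mouse. Without the filter on low counts, 386 in place of 607 were called for the difference of the fasting responses and 152 in place of 287 for that of the refeeding responses (124 to 391 without 1 mouse). Bonferroni adjustment left 13, 140 and 2 by genotype in fed, fasted and refed mice, 28 and 12 for the differences of responses, and 560 to 991 for changes of feeding state. No paired analysis was possible because no mouse number occurs in more than 1 group. The covariate of mouse number series could not be fitted for fasting or for refed against fed mice, and where it was fitted the numbers of members called did not change.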
